A study of Homo sapiens with 5 samples.

Results

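The NRF2 and thiol antioxidant genes are 9 genes of redox defence: NFE2L2, SLC7A11, GCLC, GCLM, TXN, TXNRD1, SRXN1, NQO1 and SOD2. They were chosen by name for their known roles, with earlier results of these data known. They were looked up by Ensembl gene ID in a deposited table of read counts for 51055 genes, and 8 of the 9 were matched. SRXN1 encodes sulfiredoxin, the enzyme that restores over-oxidised peroxiredoxins. It was not matched by its current ID or an older symbol, so its expression was not analysed here. Retired gene IDs were not searched, and 6750 IDs of the table had no symbol. All 8 matched genes passed the filter on low counts.

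Expression was sequenced in HL60, an established human leukaemia line that grows as promyelocytes, the immature precursors of granulocytes. UNT is 1 library of untransduced HL60. SCR is 2 libraries of HL60 carrying the control lentivector, which the labels call both scramble and empty. ZIP is 2 libraries of HL60 carrying a lentivector whose hairpin yields an RNA antisense to miR-378a-3p. SCR and ZIP cells were infected at a multiplicity of 20 in the presence of 8 µg/mL polybrene, and both were kept in 2 µg/mL puromycin between day 3 and day 8. Both vectors also carry green fluorescent protein. In SCR or ZIP against UNT, the vector, the infection and the selection cannot be told apart. The cells are populations selected by drug, and no label says that replicates came from separate cultures. The p-values therefore speak only of library-to-library spread, which can be technical. Whether UNT received puromycin is not stated. The microRNA that the ZIP hairpin opposes is printed to show its seed (bases 2 to 8, in capitals), the stretch that pairs with target mRNAs. It is credited to RefSeq, GRCh38.p14, plus strand, chr5:149732867-149732888.
hsa-miR-378a-3p: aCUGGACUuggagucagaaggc

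NRF2, the protein of NFE2L2, is a transcription factor that the adaptor KEAP1 and the ubiquitin ligase scaffold CUL3 normally send to the proteasome. Oxidants and electrophiles block that disposal, and NRF2 then pairs with small MAF proteins on antioxidant response elements. Its targets make glutathione, run the thioredoxin system and detoxify quinones. NRF2 is regulated largely at the protein level, which read counts do not measure. Myeloid cells, which store a peroxidase and can make superoxide, rely on these systems.

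Library totals ran from 24406580 to 30925067 counts. Levels are given in CPM, read counts relative to a library size scaled by TMM (trimmed mean of M values). Fold changes and adjusted p-values are from the edgeR quasi-likelihood test with Benjamini-Hochberg adjustment over all genes tested, and the replicated groups have n = 2. The 10 promyelocyte markers, led by the peroxidase MPO, summed to 25343 CPM in UNT, 12449 to 12454 in SCR and 22824 to 23474 in ZIP. MPO alone had 19034 CPM in UNT, so the sum mostly follows that gene. Of these 10 markers 6 were higher and 1 lower in ZIP over SCR. In SCR over UNT 2 were higher and 8 lower, and in ZIP over UNT 3 were higher and 5 lower. Markers of other cells were present at lower sums, and some moved with the groups. The 14 monocyte and macrophage markers in the table, led by LYZ and none of them without a count in all libraries, summed to 598 CPM in UNT, 1528 to 1538 in SCR and 1594 to 1597 in ZIP. Of these 14 markers 11 were lower and 1 higher in ZIP than in SCR (median log2 fold change -2.50), so the sum does not follow most of them. In SCR over UNT 11 were higher and 2 lower (median 2.34). The 14 markers of maturing neutrophils, of which ALPL had no count, summed to 389 CPM in UNT, 1064 to 1066 in SCR and 476 to 480 in ZIP. ITGB2 and CSF3R, which immature and other white cells also express, made up most of that sum, at 739 and 232 CPM in SCR 1. Of the 11 neutrophil markers tested in SCR over UNT 5 were higher, 3 lower and 3 not called, and the granule protein LTF was among the lower, with 7.35 CPM in UNT and 0.552 and 0.584 in SCR. Of 9 tested in ZIP over SCR 1 was higher and 7 lower. The 8 T and NK cell markers summed to 13.0 to 23.9 CPM and the 5 B cell markers, with MS4A1 at 0, to 1.94 to 4.63. Of 7 erythroid markers 5 had no count, and of 9 epithelial and fibroblast markers 4 had none (sums up to 0.163 and 0.980 CPM). The part of these maturation markers in the results below was not tested, and in bulk libraries a shift in the share of cells cannot be told apart from a shift in RNA per cell.

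In ZIP against SCR, 7 of the 8 genes were called (adjusted p under 0.05), beside 65.4% of all 14643 genes tested. Higher in ZIP were 5 genes, GCLM, TXNRD1, GCLC, TXN and SOD2, beside a background of 32.2%. Lower in ZIP were 2, NFE2L2 and SLC7A11, beside a background of 33.2%. NQO1 was not called. The factor and several of its textbook targets moved in opposite directions: NFE2L2 stood 2.09-fold lower in ZIP than in SCR, while GCLM stood 2.11-fold higher. The median log2 fold change of the 8 genes was 0.32, and that of all genes tested was -0.00184.

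In SCR against UNT, 5 of the 8 genes were called, beside 64.9% of all 15832 genes tested, so the share of these genes was close to the background. SLC7A11 and NQO1 were higher in SCR (2 genes, background 32.7%), and TXN, NFE2L2 and TXNRD1 were lower (3 genes, background 32.2%). In ZIP against UNT all 8 were called, beside 58.2% of genes tested. Of these 6 were higher (background 28.5%) and 2, NFE2L2 and TXN, were lower (background 29.7%). Both comparisons with UNT share its single library, whose spread is taken from the replicated groups, and their values are set side by side only. With library totals in place of TMM, 8 rather than 5 genes were called in SCR over UNT.

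**Figure D1:**
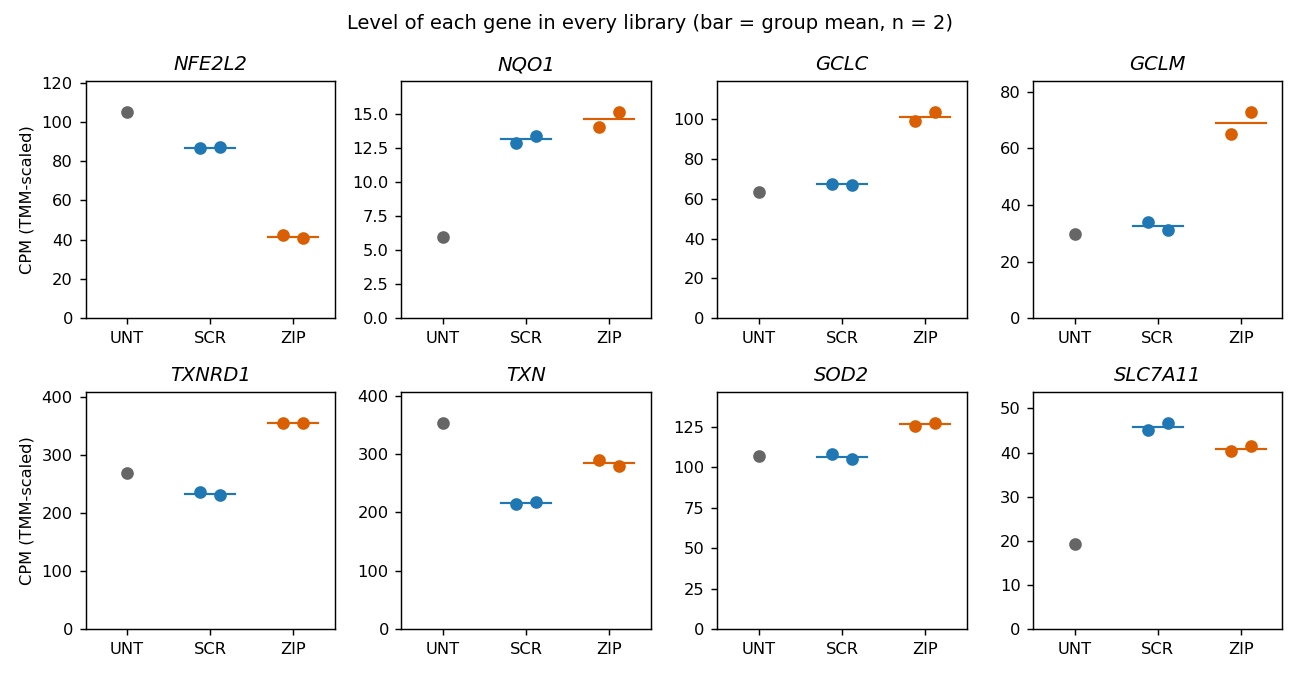
CPM (y axes, from 0) of the 8 genes in each library of UNT (n = 1), SCR (n = 2) and ZIP (n = 2); points are libraries and bars are the means of SCR and ZIP. NFE2L2 falls from 105 CPM in UNT to 40.9 and 42.2 in ZIP, while GCLM rises from 29.6 in UNT to 65.1 and 72.8 in ZIP.

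NFE2L2 (ENSG00000116044, chromosome 2, 177227595 to 177392697, minus strand, GRCh38) encodes NRF2. It had 105 CPM in UNT, 86.8 and 87.0 in SCR, and 42.2 and 40.9 in ZIP. The 3 groups did not overlap, and UNT was the highest and ZIP the lowest. The log2 fold change was -1.06 ± 0.04 (SE) in ZIP over SCR (edgeR adjusted p = 2.2e-15). It was -0.27 ± 0.04 in SCR over UNT (edgeR adjusted p = 2.2e-06) and -1.34 ± 0.04 in ZIP over UNT (edgeR adjusted p = 2.9e-17). In SCR over UNT library totals gave -0.16 in place of -0.27, still called. NFE2L2 shares 1054 exon bases with AC019080.1 on the same strand (33 to 75 counts), and on the opposite strand 190 with AC079305.1 (6 to 13 counts) and 54 with AGPS (3270 to 4895 counts). The strand setting of the counting is not stated, so reads from these stretches are uncertain.

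SLC7A11 (ENSG00000151012, chromosome 4, 138164097 to 138242349, minus strand) encodes xCT, the antiporter that imports cystine, the source of cysteine for glutathione. It had 19.3 CPM in UNT, 45.0 and 46.8 in SCR, and 40.3 and 41.4 in ZIP. Both vector groups stood well above UNT, and ZIP lay just under SCR without overlap. SLC7A11 rose by 1.25 ± 0.07 (SE) on the log2 scale in SCR over UNT (edgeR adjusted p = 3.9e-13) and by 1.08 ± 0.07 in ZIP over UNT (edgeR adjusted p = 1.2e-11). The difference of ZIP over SCR was smaller, -0.17 ± 0.05 (edgeR adjusted p = 0.0035). DESeq2 gave the same value, -0.17 ± 0.08, but did not call it (adjusted p = 0.0994). Its antisense gene SLC7A11-AS1 shares 865 exon bases but held only 2 to 27 counts, beside 462 to 1232 for SLC7A11.

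Glutamate-cysteine ligase carries out the rate-limiting step of glutathione synthesis. GCLC (ENSG00000001084, chromosome 6, 53497341 to 53616970, minus strand), its catalytic subunit, had 63.2 CPM in UNT, 67.5 and 67.0 in SCR, and 98.9 and 103.6 in ZIP. GCLM (ENSG00000023909, chromosome 1, 93885205 to 93909456, minus strand), the modifier subunit that raises the enzyme's activity, had 29.6 CPM in UNT, 34.0 and 31.2 in SCR, and 65.1 and 72.8 in ZIP. For both subunits ZIP stood clear of the other 3 libraries.

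GCLC rose by 0.59 ± 0.03 (SE) on the log2 scale in ZIP over SCR (edgeR adjusted p = 4.4e-12) and GCLM by 1.08 ± 0.05 (edgeR adjusted p = 6.3e-13). Over UNT the rises in ZIP were 0.68 ± 0.04 for GCLC (edgeR adjusted p = 7.5e-12) and 1.21 ± 0.07 for GCLM (edgeR adjusted p = 1.3e-12). Neither was called in SCR over UNT. GCLC was at 0.09 (95% confidence interval -0.01 to 0.19, edgeR adjusted p = 0.094) and GCLM at 0.14 (-0.03 to 0.30, edgeR adjusted p = 0.14). With library totals in place of TMM the median log2 fold change of all genes in this comparison moved from 0.02 to 0.13, and both were then called, GCLC at 0.20 and GCLM at 0.25. GCLM was also called without SCR 2 (edgeR adjusted p = 0.0312).

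Within a library, GCLM gave 0.469 counts per GCLC count in UNT, 0.503 and 0.465 in SCR, and 0.658 and 0.703 in ZIP. This ratio needs no scaling between libraries. UNT lay between the SCR libraries, and both ZIP libraries lay above them. Set against NFE2L2, GCLM gave 0.282 counts per NFE2L2 count in UNT, 0.391 and 0.359 in SCR, and 1.54 and 1.78 in ZIP. With 2 libraries a group, no test of these ratios was made.

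**Figure D2:**
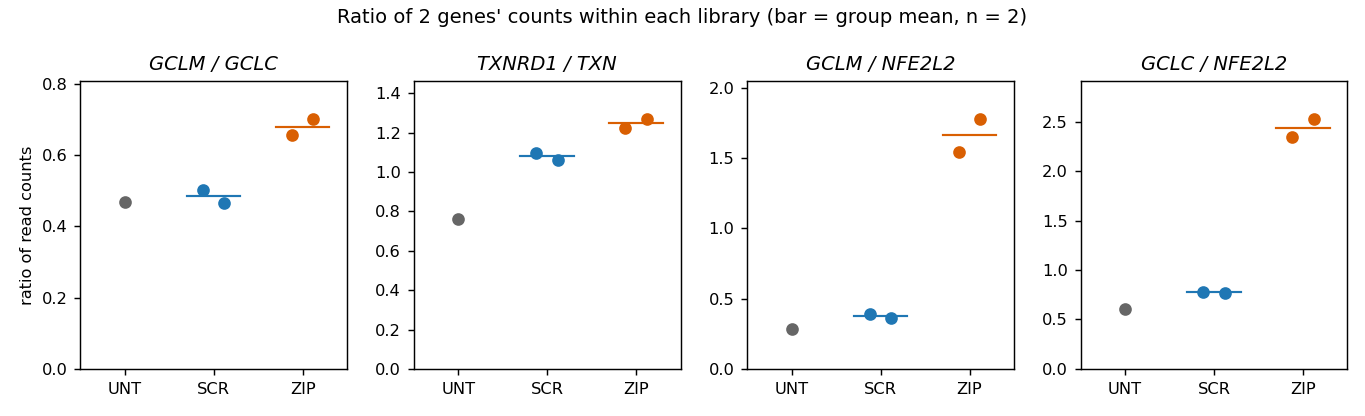
Ratio of the read counts of 2 genes within each library (y axes, from 0), by group; points are libraries and bars are the means of SCR and ZIP. For GCLM over NFE2L2 the ZIP libraries stand at 1.54 and 1.78, and the other libraries lie between 0.282 and 0.391.

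Promoters were examined in RefSeq's table (GRCh38.p14) over the 250 bases before each transcription start, since several of these genes moved together. The table held 13 such windows for 8 of the 9 genes. These 8 include SRXN1, which was not matched in the counts, and leave out SLC7A11, which had no window. The antioxidant response element core was searched as TGACNNNGC on both strands. It occurred in 3 of the 13 windows, the GCLM promoter and both TXNRD1 promoters, and in 10.9% of all 35116 windows. The AP-1 element TGANTCA, bound by JUN and FOS proteins, occurred in 0 of the 13 and in 6.57% of all. A loose form of the NF-kB element occurred in 11 of the 13 and in 54.4% of all. A match describes letters only, and elements outside these windows were not searched.

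The GCLM promoter is printed because it holds the core beside the largest rise among the 8 genes in ZIP over SCR. The match, in capitals, lies on the reverse strand and begins 34 bases before the start (chr1:93909431-93909680, minus strand).
GCLM promoter: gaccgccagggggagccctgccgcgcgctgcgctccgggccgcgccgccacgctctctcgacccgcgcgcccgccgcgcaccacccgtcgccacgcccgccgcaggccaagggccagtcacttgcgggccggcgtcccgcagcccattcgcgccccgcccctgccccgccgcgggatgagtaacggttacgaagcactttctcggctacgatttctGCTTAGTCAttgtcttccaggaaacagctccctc

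TXNRD1 (ENSG00000198431, chromosome 12, 104215779 to 104350305, plus strand) encodes the cytosolic selenoenzyme that reduces thioredoxin with NADPH. Its 2 annotated starts are printed because both windows hold the core, the first on the forward strand 99 bases before the start (chr12:104215529-104215778) and the second on the reverse strand 102 bases before it (chr12:104286782-104287031), both plus strand. Matches are in capitals.
TXNRD1 promoter 1: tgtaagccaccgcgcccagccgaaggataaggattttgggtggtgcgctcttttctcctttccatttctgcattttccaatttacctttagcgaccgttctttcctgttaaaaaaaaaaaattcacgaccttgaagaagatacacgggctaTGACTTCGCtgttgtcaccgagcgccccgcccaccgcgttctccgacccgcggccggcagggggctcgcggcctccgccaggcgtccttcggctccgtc
TXNRD1 promoter 2: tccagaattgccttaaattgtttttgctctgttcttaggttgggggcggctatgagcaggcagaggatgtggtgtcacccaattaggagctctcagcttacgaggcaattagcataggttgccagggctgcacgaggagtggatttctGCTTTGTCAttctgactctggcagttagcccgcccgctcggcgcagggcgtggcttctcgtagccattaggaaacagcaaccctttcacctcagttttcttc

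TXNRD1 had 269 CPM in UNT, 236 and 231 in SCR, and 356 and 355 in ZIP. ZIP was the highest group and SCR the lowest, without overlap. TXNRD1 rose by 0.61 ± 0.03 (SE) on the log2 scale in ZIP over SCR (edgeR adjusted p = 5.6e-14) and by 0.40 ± 0.03 in ZIP over UNT (edgeR adjusted p = 4.3e-10). It fell by 0.21 ± 0.03 in SCR over UNT (edgeR adjusted p = 7.1e-06), and by 0.098 with library totals (edgeR adjusted p = 0.013).

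TXN (ENSG00000136810, chromosome 9, 110243811 to 110256640, minus strand) encodes thioredoxin, the small protein that passes electrons from TXNRD1 to protein disulfides. It had 354 CPM in UNT, 214 and 218 in SCR, and 291 and 279 in ZIP. Here UNT was the highest group, ZIP lay in the middle and SCR was the lowest, without overlap. TXN fell by 0.71 ± 0.03 (SE) on the log2 scale in SCR over UNT (edgeR adjusted p = 1.3e-14) and by 0.31 ± 0.03 in ZIP over UNT (edgeR adjusted p = 3.7e-08). It stood 0.40 ± 0.03 higher in ZIP than in SCR (edgeR adjusted p = 1.6e-10). TXN has processed pseudogenes that can take its reads, and those in the table held at most 23 counts in a library, beside 5436 to 8892 for TXN.

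The reductase and its substrate thus kept different orders across the groups. TXNRD1 gave 0.761 counts per TXN count in UNT, 1.10 and 1.06 in SCR, and 1.22 and 1.27 in ZIP. The ratio was lowest in UNT and highest in ZIP, without overlap.

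NQO1 (ENSG00000181019, chromosome 16, 69706996 to 69726951, minus strand) encodes a reductase that turns quinones into hydroquinones with both electrons in a single step. It had 5.97 CPM in UNT, 12.9 and 13.4 in SCR, and 14.1 and 15.2 in ZIP, and was the scarcest of the 8 genes in CPM. Both vector groups stood above UNT. NQO1 rose by 1.14 ± 0.13 (SE) on the log2 scale in SCR over UNT (edgeR adjusted p = 3.2e-08) and by 1.29 ± 0.12 in ZIP over UNT (edgeR adjusted p = 4.7e-09). The ZIP libraries lay above the SCR libraries without overlap, but the difference, 0.15 (95% confidence interval -0.02 to 0.31), was not called (edgeR adjusted p = 0.11), and with library totals it was 0.089. NQO1 had 143 to 431 counts a library, fewer than the other 7 genes, and its standard errors were the largest of the 8 in every comparison.

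SOD2 (ENSG00000112096, chromosome 6, 159669057 to 159745186, minus strand) encodes the manganese superoxide dismutase of mitochondria and is a known target of NF-kB as well as an antioxidant gene. It had 107 CPM in UNT, 108 and 105 in SCR, and 126 and 128 in ZIP. UNT lay between the SCR libraries, and ZIP lay above both groups. SOD2 rose by 0.25 ± 0.03 (SE) on the log2 scale in ZIP over SCR (edgeR adjusted p = 2.4e-07) and by 0.24 ± 0.04 in ZIP over UNT (edgeR adjusted p = 9.7e-06). In SCR over UNT it was at -0.01 (95% confidence interval -0.09 to 0.07, edgeR adjusted p = 0.86). With library totals SOD2 was at 0.10 there and was called (edgeR adjusted p = 0.0271), within the shift of all genes given for GCLC. SOD2 shares 298 exon bases with WTAP on the opposite strand, which held 2516 to 3287 counts, so reads from that stretch are uncertain.

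**Figure D3:**
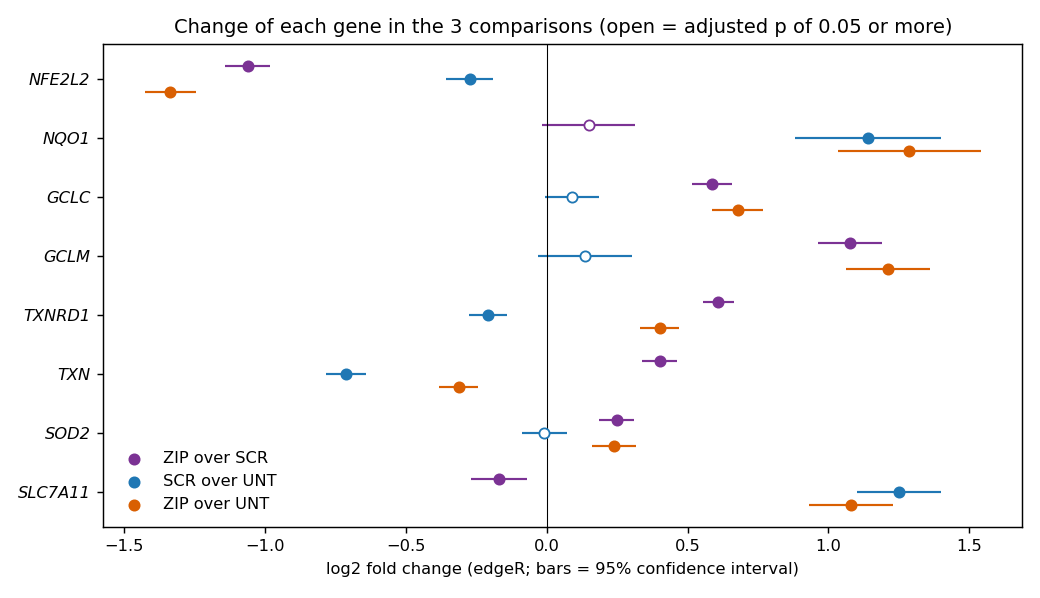
Log2 fold change (x axis) of the 8 genes in ZIP over SCR, SCR over UNT and ZIP over UNT, with 95% confidence intervals from edgeR; filled points had an adjusted p under 0.05. NFE2L2 lies left of 0 in all 3 comparisons, GCLC and GCLM are filled in both comparisons that involve ZIP, and SLC7A11 (1.25) and NQO1 (1.14) lie farthest right in SCR over UNT.

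Levels of the 8 genes were ranked per kilobase of annotated exon (RPKM, from the same scaled library size). The rank of NQO1 by CPM given above does not allow for exon length. TXN was the highest in every library, at 310 RPKM in UNT, 188 and 191 in SCR, and 254 and 245 in ZIP. TXNRD1 followed at 34.4 to 53.0. NFE2L2 came next in UNT and SCR, at 17.6 in UNT and 14.5 and 14.6 in SCR. In ZIP it stood at 7.05 and 6.84, below GCLM (mean 12.7), GCLC (mean 11.7) and SOD2 (mean 7.68). SLC7A11 and NQO1 were the lowest in UNT, at 2.00 and 1.83, and in ZIP they lay near each other, at 4.17 and 4.29 for SLC7A11 and 4.33 and 4.67 for NQO1. Exon lengths are unions over all transcripts, so long untranslated ends, as in SOD2, lower this measure.

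The seed match of miR-378a-3p, AGTCCAG, was counted in the 3′ UTR of each gene's longest coding transcript in GENCODE 29. SOD2 held 1 match in a 3′ UTR of 13436 bases, and the other 7 genes held 0. Of 12531 protein-coding genes tested, 12.6% held at least 1 match. Their median 3′ UTR had 1276 bases, and those of the other 7 genes ran from 346 to 7859. This share is therefore not matched for length. A match is a description and not a shown site.

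The regulators, partners and relatives of NRF2 did not move as a block. The list holds the KEAP1 ligase genes, SQSTM1, the small MAF genes, and related factors of the NFE2 and BACH families. Of these 12 genes 3 were higher and 6 lower in ZIP than in SCR. In SCR over UNT 5 were higher and 4 lower, and in ZIP over UNT 6 were higher and 5 lower. Calls in this list, the marker lists above and the lists below stand beside the shares of all genes tested. Those shares were 32.2% higher and 33.2% lower in ZIP over SCR, and 32.7% and 32.2% in SCR over UNT. For ZIP over UNT the shares were 28.5% and 29.7%. KEAP1, which holds NRF2 down, had 81.5 CPM in UNT, 71.1 and 69.9 in SCR, and 88.2 and 82.8 in ZIP (log2 0.28 ± 0.04 in ZIP over SCR, edgeR adjusted p = 1.1e-06). The small MAF partners differed among themselves. MAFF had 0.584 CPM in UNT, 10.3 and 10.3 in SCR, and 2.09 and 2.32 in ZIP, and fell by 2.23 ± 0.13 on the log2 scale in ZIP over SCR (edgeR adjusted p = 5.5e-12). MAFK went the other way, with 133 CPM in UNT, 33.0 and 34.2 in SCR, and 58.6 and 54.7 in ZIP. MAFG was the most abundant small MAF gene in SCR and ZIP. Its levels were 101 CPM in UNT, 145 in both SCR libraries, and 133 and 136 in ZIP. The fall of MAFG from SCR to ZIP was small but called (-0.11 ± 0.03 on the log2 scale, edgeR adjusted p = 0.0023). SQSTM1, a cargo receptor of autophagy that can sequester KEAP1, had 82.7 CPM in UNT, 153 and 157 in SCR, and 107 and 110 in ZIP.

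Other textbook targets of NRF2 were mixed in ZIP over SCR, as were all genes tested. Of 24 tested there 10 were higher and 7 lower (median log2 fold change 0.04). Against UNT more of them were higher than lower. Of 25 tested 12 were higher and 5 lower in SCR over UNT (median 0.37, and 0.02 for all genes). In ZIP over UNT 14 were higher and 4 lower (median 0.35, and 0.00153 for all genes). The largest rises in ZIP over SCR were PIR, an iron-binding nuclear protein (2.10 ± 0.14 on the log2 scale, edgeR adjusted p = 3.3e-11), and OSGIN1 (1.29 ± 0.25, edgeR adjusted p = 1.6e-04). PIR had 1.04 CPM in UNT, 2.01 and 2.49 in SCR, and 9.90 and 9.35 in ZIP. The largest falls were the ferritin heavy chain FTH1 (-1.34 ± 0.05, edgeR adjusted p = 7.8e-15), whose many pseudogenes make its counts uncertain, and the aldose reductase AKR1B1 (edgeR adjusted p = 6.6e-09). AKR1B1 had 2.17 CPM in UNT, 16.3 and 15.2 in SCR, and 8.36 and 7.28 in ZIP. ME1, malic enzyme, a source of NADPH, was chosen after its values were seen. Like NQO1 it stood far lower in UNT than in both vector groups, with 0.960 CPM in UNT, 19.9 and 20.1 in SCR, and 18.3 and 18.2 in ZIP.

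Among 29 tested genes of glutathione synthesis and use 9 were higher and 10 lower in ZIP over SCR. These shares were close to the background of 32.2% and 33.2%. In SCR over UNT 11 were higher and 13 lower, and in ZIP over UNT 7 were higher and 11 lower. Glutathione synthetase, GSS, which completes the molecule after the GCLC and GCLM step, had 57.4 CPM in UNT, 48.3 and 45.9 in SCR, and 57.2 and 59.9 in ZIP. CHAC1, an enzyme that degrades glutathione, was among the largest falls in ZIP over SCR (-2.95 ± 0.18 on the log2 scale, edgeR adjusted p = 8.4e-12). CHAC1 had 3.17 CPM in UNT, 7.69 and 7.08 in SCR, and 1.05 and 0.827 in ZIP. The largest rises were ANPEP, an aminopeptidase (0.70 ± 0.03, edgeR adjusted p = 3.0e-15), and GSTP1, a glutathione transferase (0.65 ± 0.03, edgeR adjusted p = 1.7e-14).

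The thioredoxin and peroxiredoxin list moved more one way. Of 21 tested genes other than TXN, TXNRD1 and SRXN1, 15 were higher and 3 lower in ZIP over SCR (median log2 fold change 0.36, and -0.00184 for all genes). In SCR over UNT 4 were higher and 14 lower (median -0.24, and 0.02 for all genes), and in ZIP over UNT 8 were higher and 9 lower (median -0.08). PRDX4, the peroxiredoxin of the secretory pathway, had 103 CPM in UNT, 57.6 and 55.8 in SCR, and 93.7 and 90.6 in ZIP, the same order of groups as TXN. The sestrins, stress-induced regulators of growth signalling, split. SESN3 had 210.4 CPM in UNT, 67.8 and 66.5 in SCR, and 188 and 194 in ZIP, while SESN2 had 5.84 in UNT, 56.3 and 55.2 in SCR, and 15.1 and 11.9 in ZIP.

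Among 9 other genes that remove superoxide and peroxides 3 were higher and 4 lower in ZIP over SCR, 2 higher and 7 lower in SCR over UNT, and 3 higher and 4 lower in ZIP over UNT. SOD1, the cytosolic counterpart of SOD2, had 244 CPM in UNT, 160 and 165 in SCR, and 246 and 241 in ZIP. It fell in SCR over UNT (-0.58 ± 0.04 on the log2 scale, edgeR adjusted p = 9.9e-13), beside -0.01 for SOD2. The selenoenzyme GPX1 ran opposite to SOD1, with 263 CPM in UNT, 511 and 524 in SCR, and 299 and 275 in ZIP.

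**Figure D4:**
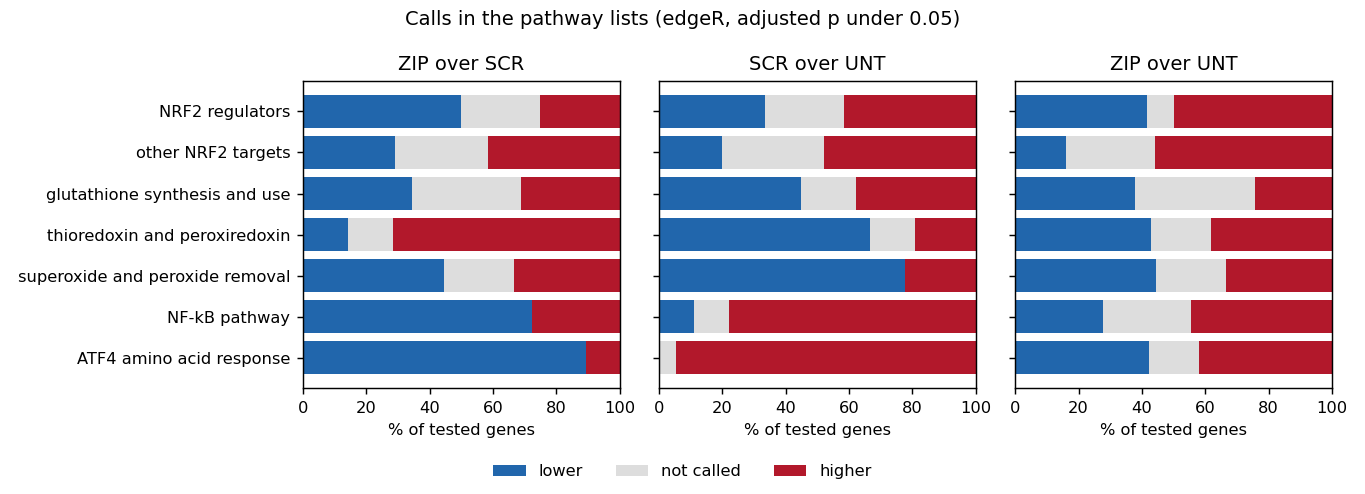
Share of the tested genes of each pathway list (x axes, percent) called lower (blue), called higher (red) or not called (grey) by edgeR in the 3 comparisons. The ATF4 list is nearly all lower in ZIP over SCR (17 of 19) and nearly all higher in SCR over UNT (18 of 19).

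SOD2 and SLC7A11 are also known targets of NF-kB and of ATF4, the factor of the amino acid stress response, so both lists were set beside them. Of 18 NF-kB pathway genes 13 were lower and 5 higher in ZIP over SCR, 14 were higher and 2 lower in SCR over UNT, and 8 were higher and 5 lower in ZIP over UNT. The 5 higher in ZIP than in SCR were REL (0.62), RELA (0.24) and NFKB1 (0.23), subunits of the factor, and its inhibitors NFKBIA (0.17) and NFKBIB (0.19). Other subunits and inhibitors were among the 13 lower: NFKB2 (-2.62), RELB (-1.90), NFKBIE (-0.55) and NFKBIZ (-2.03). Of these subunits and inhibitors, all but REL and RELA were named after their values were seen. ICAM1, an adhesion molecule induced by NF-kB, had 0.459 CPM in UNT, 16.2 and 14.9 in SCR, and 1.14 and 0.703 in ZIP. SOD2 was higher in ZIP than in SCR, as were those 5 genes and unlike the other 13, was not called in SCR over UNT, and was higher in ZIP over UNT, as were 8 of the list. Of 19 ATF4 genes 17 were lower and 2 higher in ZIP over SCR, 18 were higher and 0 lower in SCR over UNT, and 8 were higher and 8 lower in ZIP over UNT. The median log2 fold change of that list in ZIP over SCR was -0.60, beside -0.17 for SLC7A11. In SCR over UNT the median was 0.54, beside 1.25 for SLC7A11, and in ZIP over UNT 0.06, beside 1.08. SLC3A2, the heavy chain that pairs with the SLC7A11 protein, had 167 CPM in UNT, 212 and 209 in SCR, and 201 and 189 in ZIP.

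Genes most like a member were ranked over the 5 libraries by the root mean square difference of log2(CPM + 0.5), centred on each gene's mean, among 11021 other protein-coding genes. For NFE2L2 they were CERCAM (0.0430), SLAMF6 (0.0674) and HSPA1B (0.0970), the last with a near-identical copy that makes its counts uncertain. For SLC7A11 they were TPR (0.0212), TLN1 (0.0222) and TACC1 (0.0231). For NQO1 they were PANX1 (0.0373), ALMS1 (0.0436) and AVPR2 (0.0454), and for GCLM they were ZNF121 (0.0873), VPS13A (0.0895) and IGSF10 (0.0919). With 3 groups many genes share an order, and likeness here is a description only.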

How the data were processed

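The authors deposited 1 table of gene-level read counts, taken as unnormalized because its values are whole and its column totals differ. The labels name a small RNA library kit. Bowtie2 and featureCounts are named per the submitters' processing notes, while the design text names TopHat 2, Cufflinks and HTSeq. Which of these made the table, and its genome build, annotation and strand setting, is not stated. Library totals were 24406580 to 30925067. After TMM scaling (effective sizes 23955705 to 30605901), 3 counts equal 0.0980 to 0.125 CPM, which covers counting error only.

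Columns were matched to libraries by the description label. Of 51055 gene IDs 44305 were named with GENCODE 29 (GRCh38), which also gives coordinates and exon lengths. Some genes stand in more than 1 list. After filterByExpr (at least 10 counts, total of at least 15), TMM scaling was applied and genes were tested with the edgeR 4.0.16 quasi-likelihood test in R 4.3.3, with Benjamini-Hochberg adjustment over all genes. ZIP over SCR used 4 libraries, and comparisons with UNT used all 5. Each fit had 2 residual degrees of freedom. DESeq2 1.42.0, other scalings, no filter, each replicate left out and a replicate block were tried.

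The genes and lists were chosen with earlier results of these data known. The 8 matched genes were all named. Of each list, the 2 largest rises and 2 largest falls in ZIP over SCR with adjusted p under 0.05 and at least 1 CPM on average in a group could be named, and some were left out. GSS, PRDX4, SLC3A2, ME1, MAFG, NFKB1, NFKB2, RELB, NFKBIA, NFKBIB, NFKBIE and NFKBIZ fall outside that rule and were chosen after their values were seen. The 3 genes most like a member were named for the 4 genes with the largest range of group means.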

Additional observations from a re-analysis of the deposited data

How the results depend on the processing

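Of 208 values of single genes under other settings, 202 kept their direction and their side of the threshold. Scaling by library totals shifted the all-gene median of SCR over UNT from 0.02 to 0.13, and GCLC (0.20) and GCLM (0.25) were then called, SOD2 turned to 0.10, and 8 rather than 5 genes were called. TXNRD1 (-0.098) and NFE2L2 (-0.16) there, and NQO1 in ZIP over SCR (0.089), came closer to 0 without a change of call. With DESeq2, SLC7A11 in ZIP over SCR (-0.17) was no longer called. Over the table DESeq2 called 7054 rather than 9571 genes in ZIP over SCR and 7298 rather than 10273 in SCR over UNT. For ZIP over UNT it called 5953 rather than 9212. The background shares given above are those of edgeR. With 1 library left out, GCLM in SCR over UNT ranged from 0.076 to 0.20 and SOD2 from -0.029 to 0.022, and without SCR 2 GCLM was called and SOD2 turned sign. A setting that leaves 1 library in a group assumes that it varies like the others. With a replicate block in ZIP over SCR 9709 genes were called, and the calls of the 8 genes were as without it. The deviations of libraries with the same number correlated at 0.016 across genes, and the labels do not say that the numbers mark pairs. UNT could not be left out, and depth limits NQO1 most, at 143 counts in UNT.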
